A study of Mus musculus with 7 samples.

Results

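The genes described here are those of the cytosolic ribosomal proteins, the proteins that surround ribosomal RNA in the large and the small subunit of the ribosome. Their RNA was measured in nucleus pulposus, the soft centre of the intervertebral disc, of mice with and without MCT4, a transporter encoded by Slc16a3 that carries lactate out of the cell. Members were chosen by name alone, from the gene symbols of the array: Rpl or Rps followed by a number, without Rps6k kinases, Rps19bp1 and pseudogenes marked as such, plus Rplp0, Rplp1, Rplp2 and Rpsa. The rule found 67 of the 19505 genes, 41 of the large and 26 of the small subunit, each with 1 array feature. A RefSeq gene table holds 88 protein-coding genes under the same rule. Of these, 66 are among the 67, and Rps4l, which that table gives as a transcribed pseudogene, is the other. The remaining genes, among them Rplp2, Rps27a and Rps2, were not analysed here.

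RNA of 7 mice was hybridised to Affymetrix whole-transcript arrays, 1 array per animal, with tissue from the lumbar and caudal discs of an animal pooled into its sample. The 4 wild-type (WT) animals were 13 months old, and the 3 animals with a global knockout of MCT4 (MCT4KO) were 14 months old, so age and genotype cannot be told apart. Both groups came from MCT4+/- parents after 10 generations of backcrossing to C57Bl/6N mice. Every sample carries the strain label C57BL/6, while the design text names C57Bl/6 for WT and C57Bl/6N for knockouts. Sex was nowhere stated in the sources used here.

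Slc16a3 read 13.55, 13.35, 13.61 and 13.40 in the 4 WT animals and 5.02, 4.98 and 4.47 in the 3 MCT4KO animals, on the deposited log2 scale. It fell by 8.65 ± 0.165 (SE; adjusted p = 6.7e-09), and the knockout values lay below the median of the negative control features. Nucleus pulposus markers averaged 12.14 to 12.38 in WT and 12.40 to 12.58 in MCT4KO arrays, with Foxa1 and Car12 of the 14 measured at background in both groups. Markers of neutrophils and marrow averaged 6.96, 8.78, 5.56 and 5.83 in WT and 5.43, 5.0 and 4.97 in MCT4KO arrays, with 2 of the 14 measured at background in both groups. The part of these transcripts in the results was not tested, and the main values are also given without WT 1 and WT 2.

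A ribosome holds 1 copy of nearly every ribosomal protein, so the genes are transcribed at high and balanced rates. Their messages begin with a run of pyrimidines, the TOP motif, through which the kinase complex mTORC1 and the repressor Larp1 set how well they are translated. This control acts on translation and on message stability and need not be visible in RNA levels. Nucleus pulposus tissue lacks blood vessels, and its cells live by glycolysis and export lactate together with protons through MCT4, and making ribosomes is among the largest costs of energy in a cell.

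RefSeq promoter sequences (assembly GRCm38.p6, from 250 bases before to 50 after the annotated start) were matched by symbol to 54 of the 67 members, with 65 entries, and 13 members had none. A run of at least 8 pyrimidines (C or T) on the sense strand within 15 bases of the start stood in 22 of the 65 entries (33.8%), against 12.0% of all 32851 entries. On the opposite strand the shares were 4.62% and 13.2%. The windows printed here run from 15 bases before to 15 bases after the start, 5′ to 3′, with such runs in capitals. Rpl7a, Rpl35 and Rpl15 are shown for their long runs, Rps6, Rps26, Rps9, Rpl38, Rps27l and Rplp0 because the array values turn on them, and Rplp0 also as a window without a run.
Rpl7a: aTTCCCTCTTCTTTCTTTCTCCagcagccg
Rpl35: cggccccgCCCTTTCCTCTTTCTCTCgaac
Rpl15: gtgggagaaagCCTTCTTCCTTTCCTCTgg
Rps6: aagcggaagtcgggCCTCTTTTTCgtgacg
Rps26: gtcgggcaagccgccggaTCCTCTTTCgag
Rps9: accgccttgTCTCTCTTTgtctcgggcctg
Rpl38: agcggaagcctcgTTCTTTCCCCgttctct
Rps27l: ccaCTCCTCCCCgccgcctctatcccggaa
Rplp0: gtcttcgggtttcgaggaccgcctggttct

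These windows lie at chr2:26910792-26910821 (plus strand) for Rpl7a, chr2:39005117-39005146 (minus strand) for Rpl35 and chr14:18270972-18271001 (minus strand) for Rpl15. Those of the small subunit genes lie at chr4:86857353-86857382 (minus strand) for Rps6, chr10:128626492-128626521 (minus strand) for Rps26, chr7:3704026-3704055 (plus strand) for Rps9 and chr9:66946071-66946100 (plus strand) for Rps27l. The windows of Rpl38 and Rplp0 lie on the plus strand at chr11:114668565-114668594 and chr5:115559452-115559481. Rps27l has a further annotated start whose window holds no such run. In Rps6 and Rps26 the run begins within 4 bases of the annotated start, whereas in Rps27l it lies wholly before the start.

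Other motifs were counted on both strands over the 300 bases. The letters CCGGAAGT, a form of the site of ETS factors, stood in 16.9% of the members' entries and 3.89% of all. AAGATGGC, a form of the YY1 site, stood in 9.23% against 2.75%. GGGCGG stood in 53.8% against 35.7%, and TATAAA in 10.8% against 13.6%. A longer palindrome with CGCG at its centre, whose letters are not printed here, stood in 7.69% against 0.466%. These shares describe the sequences and name no bound factor.

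None of the 67 members passed the test between MCT4KO and WT animals. The test was limma over all 19505 genes, with Benjamini-Hochberg adjustment and a threshold of 0.05, under which 115 genes (0.590%) were called, 23 higher (0.118%) and 92 lower (0.472%) in MCT4KO. A count of 0 among 67 is near that background and does not show that the members were unaffected. The smallest adjusted p among members was 0.30, for Rps27l. At an unadjusted p under 0.05 there were 2 members, Rps27l above and Rplp0 below its WT level, where 12.7% of all genes lay past that threshold, 5.76% higher and 6.90% lower. In these bulk samples, fewer cells of a type and less RNA per cell cannot be told apart.

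The differences were small on the deposited scale, and most intervals lay within 0.5 of 0. The median log2 difference, MCT4KO minus WT, was 0.035 over the members, with quartiles of −0.068 and 0.15, against 0.017 over all genes, with quartiles of −0.15 and 0.18. It was above 0 for 41 members and below 0 for 26, against 10331 of the 19505 genes above 0. Without WT 1 and WT 2 the median over the members was 0.029. The difference was under 0.25 in size for 62 of the 67 (92.5%; 67.6% of all genes). The 95% interval lay within 0.5 of 0 on either side for 51 members (76.1%; 38.7% of all genes) and reached past it for 16, and lay within 1 of 0 for all 67 (91.2% of all genes). The outermost bounds were −0.70 for Rps9 and 0.84 for Rps19. The median residual SD was 0.142 over members and 0.222 over all genes.

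Signals of the members were strong: 63 had a WT mean above 10 and 24 above 16, with a median of 15.4 (6.47 for all genes). Of the 19505 genes, 7633 were at background in both groups, so the shares given for all genes come from weaker signals. The part of signal strength in the size of the differences and of the intervals was not tested. Levels were compared only within a gene, since probes differ in how they bind. Rpl3l and Rpl39l lay at or below the control median on every array and have no interpretable difference. Ribosomal protein genes have many near-identical processed copies in the genome, so a feature can take signal from copies, and this was not tested.

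**Figure D1:**
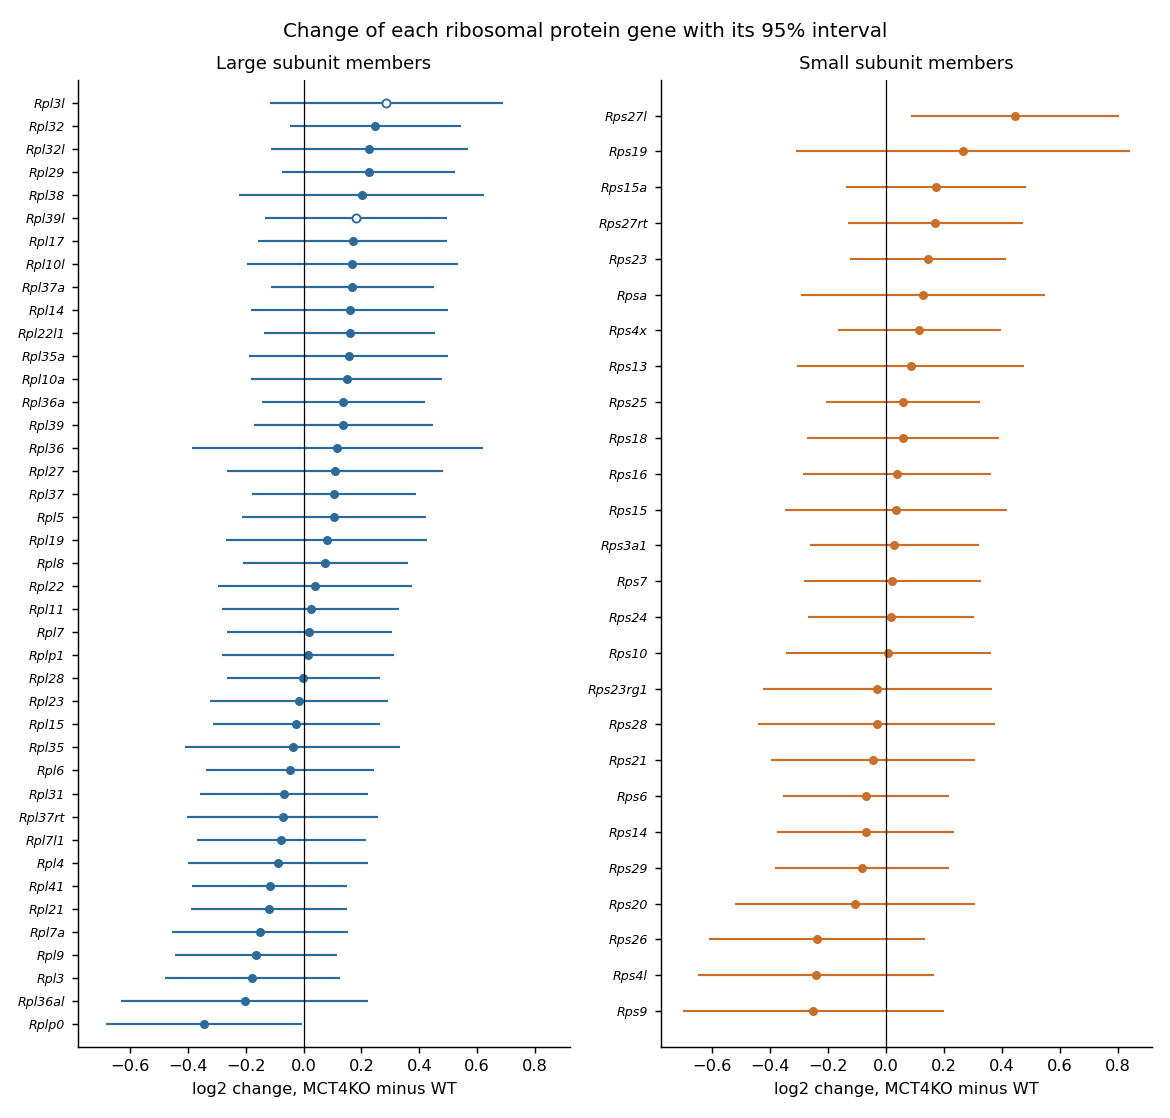
Log2 difference of each of the 67 ribosomal protein genes, MCT4KO minus WT, by subunit and in order of size, with the 95% interval of the limma fit (4 WT and 3 MCT4KO animals); open circles mark genes at background in both groups. The differences run from −0.34 for Rplp0 to 0.45 for Rps27l, and no gene passed the adjusted threshold.

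Among proteins of the large subunit, the stalk is the part that recruits translation factors, with Rplp0 as its base and Rplp1 as 1 of the proteins Rplp0 carries. Rplp0 read 14.30, 14.52, 14.42 and 14.30 in WT and 14.06, 14.28 and 13.78 in MCT4KO animals. All 3 knockout values lay below all 4 WT values, though MCT4KO 2 came within 0.1 of WT. The log2 difference was −0.34 ± 0.151 (SE; 95% interval −0.68 to −0.01; adjusted p = 0.39; exact permutation p = 0.0286, two-sided, the smallest that 35 splits allow), and −0.21 without MCT4KO 3. Rplp1 read 17.42, 17.64, 17.61 and 17.48 in WT and 17.45, 17.49 and 17.72 in MCT4KO. Its groups overlapped, with a difference of 0.015 ± 0.133 (SE; adjusted p = 0.97). MCT4KO 3 was the lowest of the 7 arrays for Rplp0 and the highest for Rplp1.

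Values of the groups did not overlap for 6 members: Rpl29, Rpl32, Rps23 and Rps27l lay higher in MCT4KO, and Rplp0 and Rpl41 lay lower. Over all genes 12.0% did not overlap, 5.66% higher and 6.37% lower, so a count of 6 among 67 is near the background. Rpl32 read 15.67, 15.73, 15.79 and 15.70 in WT and 15.79, 15.98 and 16.14 in MCT4KO, where the highest WT and the lowest knockout value differed only past the second decimal. Its difference was 0.25 ± 0.132 (SE; adjusted p = 0.47), and 0.16 without MCT4KO 3. Rpl32l, a gene of similar sequence, read 11.73, 11.99, 11.90 and 11.89 in WT and 12.01, 11.91 and 12.39 in MCT4KO, which overlapped.

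Rpl29, also known as a heparin-binding protein, read 14.71, 14.83, 14.75 and 14.82 in WT and 15.20, 14.85 and 14.95 in MCT4KO. MCT4KO 1 set most of this difference of 0.22 ± 0.134 (SE; adjusted p = 0.51), which was 0.12 without that animal. Rpl41, the smallest ribosomal protein, read 17.33, 17.27, 17.20 and 17.24 in WT and 17.17, 17.19 and 17.07 in MCT4KO. The spread within each group was about as large as the difference of −0.12 ± 0.119 (SE; adjusted p = 0.71).

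Rpl5 and Rpl11 bind 5S ribosomal RNA and, when ribosome assembly fails, bind Mdm2 and so stabilise p53. Rpl5 read 16.46, 16.32, 16.37 and 16.48 in WT and 16.50, 16.30 and 16.74 in MCT4KO, with a difference of 0.10 ± 0.142 (SE; adjusted p = 0.79). Rpl11 read 16.47, 16.55, 16.51 and 16.48 in WT and 16.47, 16.36 and 16.76 in MCT4KO, with a difference of 0.024 (adjusted p = 0.96). For both genes MCT4KO 3 was the highest and MCT4KO 2 the lowest of the 7 arrays. Without MCT4KO 3 the differences were −0.010 for Rpl5 and −0.091 for Rpl11.

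Rpl17 lines the tunnel through which the new peptide leaves the ribosome, and it and Rpl21 were named for their strong signals. Rpl21 read 17.30, 17.42, 17.44 and 17.35 in WT and 17.18, 17.26 and 17.33 in MCT4KO, a difference of −0.12 (adjusted p = 0.71). Rpl17 read 17.37, 17.33, 17.50 and 17.28 in WT and 17.40, 17.42 and 17.80 in MCT4KO, a difference of 0.17 (adjusted p = 0.66). Only MCT4KO 3 left the WT range of Rpl17. Over the 41 large-subunit members the median difference was 0.075, with 25 above and 16 below 0. Rpl3l and Rpl39l, which were at background, are counted among those above 0. The median was 0.024 with values raised to the control medians, and 0.040 with the filter on low values.

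On the small subunit, Rps6 is the protein whose phosphorylation by S6 kinase reports mTORC1 activity. Its RNA read 17.28, 17.28, 17.27 and 17.25 in WT and 17.10, 17.12 and 17.39 in MCT4KO. The WT animals were within 0.1 of each other, and the knockouts stood outside their range on both sides, MCT4KO 1 and 2 below and MCT4KO 3 above. The difference of the means was −0.07 ± 0.128 (SE; adjusted p = 0.86), and it was −0.018 without MCT4KO 1, −0.028 without MCT4KO 2 and −0.16 without MCT4KO 3.

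Rps23, a protein of the decoding centre, read 18.29, 18.15, 18.29 and 18.19 in WT and 18.42, 18.32 and 18.41 in MCT4KO. The groups did not overlap, but the difference was 0.15 ± 0.120 (SE; adjusted p = 0.64). Rps23rg1, a gene derived from a copy of Rps23, is counted with the small subunit by its symbol and is not itself a ribosomal protein. Its signal was low, and it read 7.49, 7.80, 7.53 and 7.31 in WT and 7.82, 7.23 and 7.46 in MCT4KO. Its groups overlapped, with a difference of −0.03.

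Rps9 and Rps26 had the same order among the knockouts, which further members shared, among them Rpl35, Rps10 and Rps21. Rps9, which binds early to the RNA of the small subunit, read 14.23, 14.26, 14.58 and 14.36 in WT and 13.68, 14.10 and 14.54 in MCT4KO. Rps26, which lies at the exit of the messenger RNA, read 14.28, 14.44, 14.52 and 14.39 in WT and 13.84, 14.19 and 14.48 in MCT4KO. In both genes MCT4KO 1 and 2 lay below all WT animals and MCT4KO 3 lay within the WT range. The differences were −0.25 ± 0.201 for Rps9 (adjusted p = 0.63) and −0.24 ± 0.167 for Rps26 (adjusted p = 0.58).

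Rpsa, also known as the laminin receptor, read 14.36, 14.25, 14.35 and 14.26 in WT and 14.85, 14.01 and 14.44 in MCT4KO. Knockout values lay above and below the WT range, and the difference was 0.13 ± 0.188 (SE; adjusted p = 0.81). Rps19, mutated in Diamond-Blackfan anaemia, read 12.24, 12.05, 12.09 and 11.58 in WT and 12.25, 11.70 and 12.82 in MCT4KO. It had the widest interval of all members, around a difference of 0.27 ± 0.258 (SE; adjusted p = 0.70). Over the 26 small-subunit members the median difference was 0.025, with 16 above and 10 below 0.

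**Figure D2:**
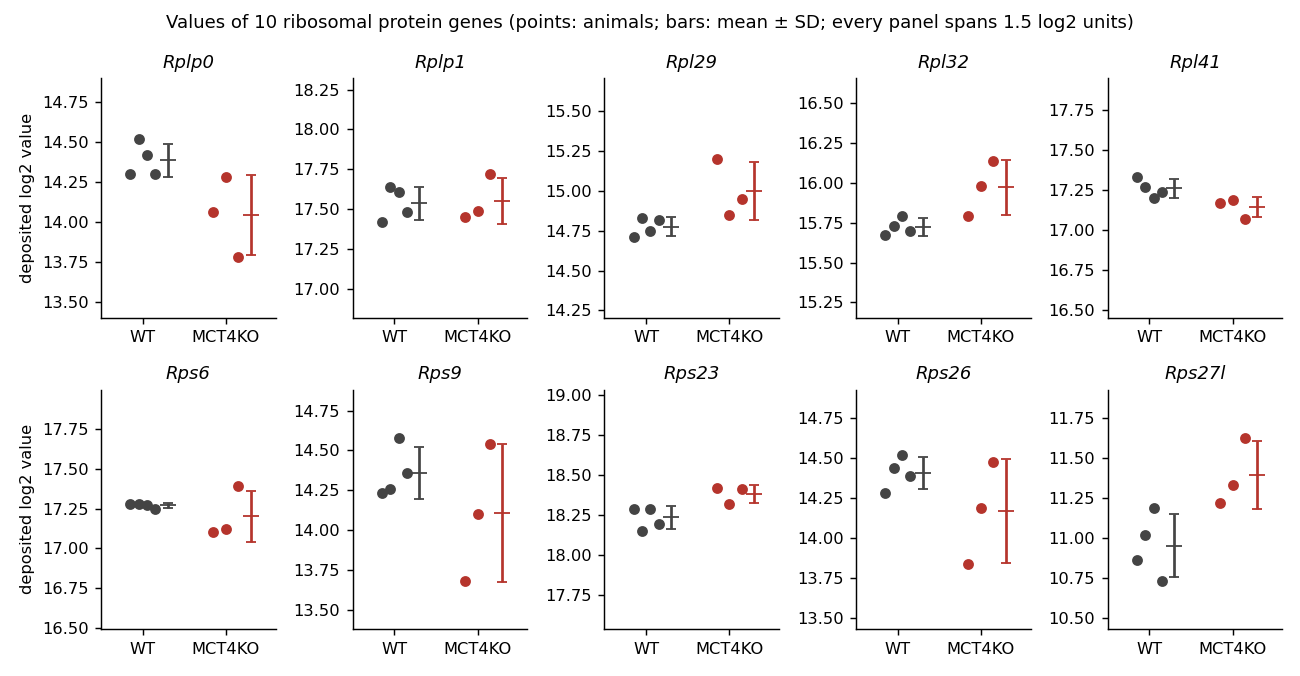
Deposited log2 values of named ribosomal protein genes in each animal, 4 WT and 3 MCT4KO, in order of animal number, with bars for the mean and SD of the group. Rplp0 lies lower and Rps27l higher in all 3 knockouts, and in Rps6, Rps9 and Rps26 the knockouts run from below the WT mean to above it.

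Paralogues are further genes related to that of a ribosomal protein, often used in few tissues. Rps27l, a paralogue of Rps27 that p53 induces, read 10.86, 11.02, 11.19 and 10.73 in WT and 11.22, 11.33 and 11.63 in MCT4KO. All knockout values lay above all WT values, by 0.45 ± 0.161 on average (SE; 95% interval 0.09 to 0.81), which did not pass the adjusted threshold (p = 0.30) and had an exact permutation p of 0.0571. Its parent gene Rps27 was not analysed here. Rps27rt, a retrocopy, read 13.88, 14.19, 14.11 and 14.07 in WT and 14.26, 14.10 and 14.34 in MCT4KO, with overlap and a difference of 0.17 (adjusted p = 0.63).

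Rpl22 is known to repress its paralogue Rpl22l1. Rpl22 read 15.94, 15.83, 15.70 and 15.77 in WT and 15.66, 15.76 and 16.13 in MCT4KO, a difference of 0.040 (adjusted p = 0.93). Rpl22l1 read 12.48, 12.72, 12.58 and 12.62 in WT and 12.67, 12.92 and 12.68 in MCT4KO, a difference of 0.16 (adjusted p = 0.64). Both overlapped between the groups.

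Rpl3, whose paralogue Rpl3l is confined to heart and skeletal muscle, read 16.31, 16.37, 16.52 and 16.31 in WT and 16.31, 16.01 and 16.28 in MCT4KO (difference −0.18, adjusted p = 0.61). Rpl3l was at background, and the muscle marker list averaged 5.79 to 6.47 in WT and 5.86 to 6.45 in MCT4KO arrays, with 3 of its 13 genes at background in both groups. Of the other pairs, Rpl36a differed by 0.14 and Rpl36al by −0.20, Rpl7 by 0.019 and Rpl7l1 by −0.08, Rpl37 by 0.10 and Rpl37rt by −0.07, and Rps4x by 0.11 and Rps4l by −0.24. Rpl7l1, like Rps23rg1, is counted by its symbol and is not itself a ribosomal protein. Rpl39 differed by 0.14, its paralogue Rpl39l was at background, and Rpl10l, whose parent gene was not analysed here, differed by 0.17. None of these passed the test.

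The knockout animals were not alike. The median over members of an animal's value minus the WT mean was −0.036 in MCT4KO 1, −0.062 in MCT4KO 2 and 0.196 in MCT4KO 3, while the same median over all genes was 0.011, 0.0064 and 0.0092. MCT4KO 3 lay above the WT mean in 55 of the 67 genes, MCT4KO 1 in 33 and MCT4KO 2 in 24. MCT4KO 3 was the highest of the 3 knockouts in 49 genes and the highest of all 7 arrays in 43. Each WT animal set against the mean of the other WT animals gave medians of −0.018, 0.017, 0.070 and −0.052, with 30, 38, 49 and 19 members above that mean. These are descriptions of single animals and carry no test.

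**Figure D3:**
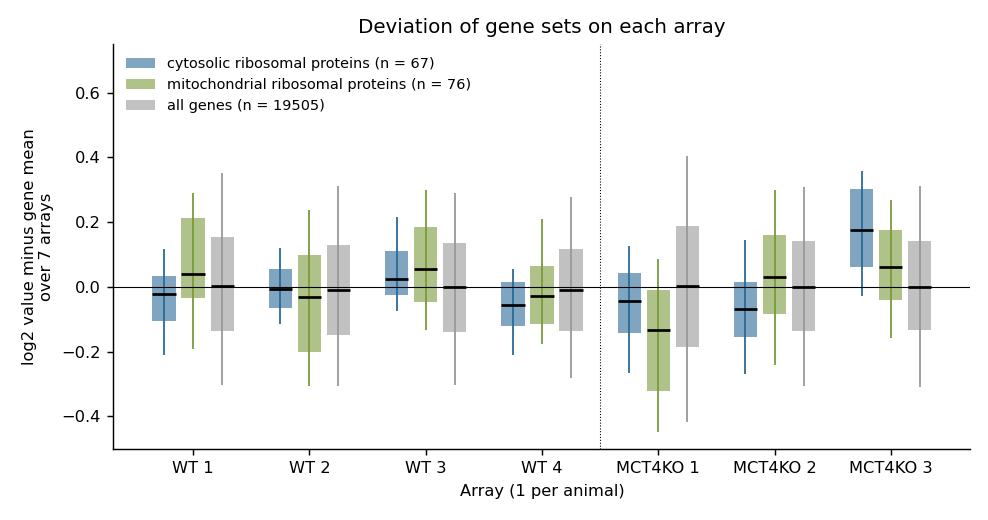
Deviation of the ribosomal protein genes from their own mean over the 7 arrays, by animal, with the median as a line, a box for the quartiles and whiskers to the outer deciles, beside the mitochondrial ribosomal proteins and all genes. The median of MCT4KO 3 is 0.175, and those of the other 6 animals lie between −0.069 and 0.026.

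Against the WT mean, the median of MCT4KO 3 was 0.187 over the large and 0.198 over the small subunit members. The genes farthest above the WT mean in that animal were Rps19 by 0.83, Rps27l by 0.68, Rpl38 by 0.65, Rpl36 by 0.63 and Rpl32l by 0.51. Rpl38, needed for the translation of Hox messages in embryos, read 16.12, 16.32, 16.25 and 16.29 in WT and 16.06, 16.38 and 16.89 in MCT4KO. Rpl36 read 13.00, 13.29, 12.93 and 12.65 in WT and 12.75, 12.91 and 13.60 in MCT4KO. In both genes only MCT4KO 3 lay above the WT range by more than 0.1.

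The other 12 members lay below the WT mean in MCT4KO 3, among them Rplp0, Rpl41, Rpl21, Rpl3, Rpl7a, Rpl9 and Rps14. Fau, which encodes a small-subunit protein outside the naming rule, read 14.08, 14.33, 14.50 and 14.34 in WT and 13.78, 14.25 and 14.85 in MCT4KO, and thus ran from the lowest to the highest of the 7 arrays within the knockouts. The 22 members with a pyrimidine run at an annotated start had a median of 0.242 in MCT4KO 3 against the WT mean, and the 32 without had 0.199. Their median group differences were 0.013 and 0.050. This split rests on annotated starts and on runs of at least 8 bases, so it does not separate TOP messages from others. Rpl3l and Rpl39l, which were at background, are among those without a run.

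Without MCT4KO 3, the median difference over the members was −0.065, with 25 of 67 above 0. It was −0.030 for the large and −0.070 for the small subunit. The direction of the median therefore rested on this animal. The 3 knockouts spanned a wider range than the 4 WT animals in 51 members (76.1%), against 45.0% of all genes, with median ranges of 0.359 in MCT4KO and 0.218 in WT (0.399 and 0.437 over all genes).

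In MCT4KO 1, 2 and 3, respectively, nucleus pulposus markers averaged 12.58, 12.40 and 12.43, annulus and tendon markers 7.90, 7.53 and 7.33, and osteoblast markers 5.28, 5.44 and 4.83, with 7 of the 8 osteoblast genes at background in both groups. The median of the 1324 positive control features was 10.13, 10.37 and 10.24, against 10.32 to 10.42 in WT. MCT4KO 3 was the lowest of the knockouts in annulus and osteoblast markers and between the others in nucleus pulposus markers and control features. The part of these values in its ribosomal protein levels was not tested.

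**Figure D4:**
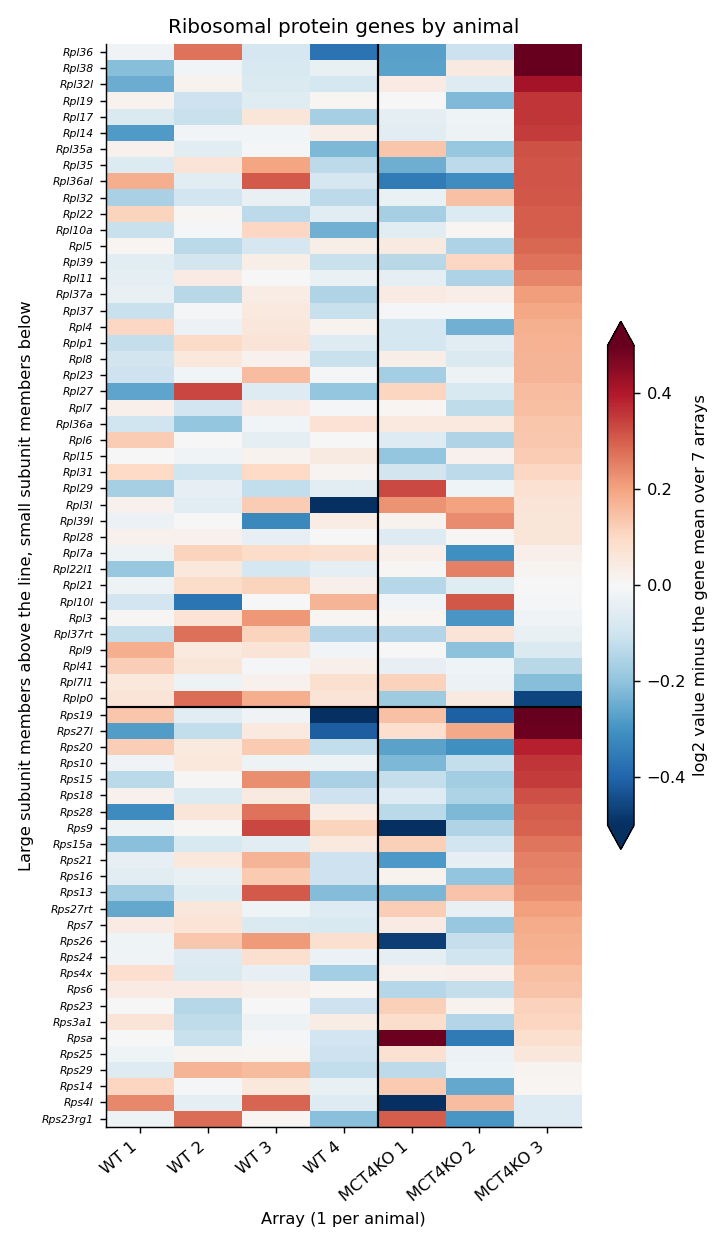
Deviation of each ribosomal protein gene (rows, large and small subunit) from its mean over the 7 arrays (columns, 4 WT and 3 MCT4KO animals), in log2 units, with colours that stop at 0.5 on either side. The column of MCT4KO 3 is above the mean in 58 of the 67 genes, and those of the other animals in 19 to 40.

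Deviations of the members were also compared pair by pair. After the group means were removed, the mean correlation over the 2211 pairs of members was 0.299, with 74.4% of pairs above 0. It was 0.129 over pairs of mitochondrial ribosomal proteins, the set described next, and 0.0012 over pairs of all genes. Among members it was 0.227 within the large and 0.421 within the small subunit, and Rpl5 with Rpl11 had 0.798. Rps9 with Rps26 had 0.965. That pair was named after its like order among the knockouts was seen, so its value is no separate evidence. Rplp0 and Rplp1 had −0.282. These correlations rest on 7 arrays that share their normalization and strong signals. Over the 4 WT arrays alone the mean was 0.120 for members and 0.0024 for all genes.

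Mitochondrial ribosomal proteins, which serve the separate ribosome of mitochondria, are given for comparison. None of their 76 genes was called, and 9 had an unadjusted p under 0.05, 3 higher and 6 lower. Over all genes 12.7% lay past that threshold, 5.76% higher and 6.90% lower, so this count is near the background. Their median difference was −0.066, and the 95% interval lay within 0.5 of 0 for 37 genes (48.7%). Against the WT mean, the medians of MCT4KO 1, 2 and 3 were −0.145, 0.00071 and 0.033. MCT4KO 3, highest by cytosolic ribosomal proteins, was thus less than 0.1 from WT here. It was still the highest of the 7 arrays by median deviation from the gene means, at 0.060, with WT 3 next at 0.056. The difference between the sets was not tested.

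Genes that make and control ribosomes were described by lists. Ribosome assembly factors had 88 of 91 genes measured, of which 1 rose and none fell. The median difference was −0.071, with 27 genes above 0, and at an unadjusted p under 0.05 there were 1 higher and 10 lower genes, where 5.76% of all genes lay higher and 6.90% lower. Called higher were 0.118% of all genes. The gene that rose was Riok3, an atypical kinase that acts in late maturation of the small subunit precursor. It read 11.78, 11.72, 11.81 and 11.61 in WT and 12.78, 12.51 and 12.57 in MCT4KO, higher by 0.89 ± 0.130 (SE; adjusted p = 0.025). The 3 knockouts lay clearly above WT, but the call ended whenever any 1 of the 7 animals was left out (0.81 to 0.95, with adjusted p of 0.05 to 0.0784), and without WT 1 and WT 2 (0.91, adjusted p = 0.149).

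Dkc1, the pseudouridine synthase of ribosomal RNA, read 8.07, 7.70, 7.69 and 7.76 in WT and 6.08, 7.05 and 7.23 in MCT4KO. All knockouts were lower, MCT4KO 1 most, but the difference of −1.02 ± 0.255 did not pass (SE; adjusted p = 0.14). The helicase Ddx10 differed by −0.66 ± 0.171 (SE; adjusted p = 0.15).

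RNA polymerase I, which transcribes ribosomal RNA, and its factors had 19 of 20 genes measured, with none called and a median of −0.165. Of these, 3 genes lay above 0, against 10331 of all 19505 genes. The list averaged 8.83 to 9.04 in WT arrays and 8.65, 8.9 and 8.84 in MCT4KO 1, 2 and 3. Only MCT4KO 1 lay below the WT range. Polr1a, the largest subunit of the polymerase, read 9.39, 9.01, 9.16 and 8.92 in WT and 8.17, 8.90 and 8.69 in MCT4KO, without overlap by a narrow margin. Its difference was −0.54 ± 0.194 (SE; adjusted p = 0.30), and Polr1e and the initiation factor Rrn3 differed by −0.37 and −0.28.

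Factors around mTORC1 and the control of ribosomal protein messages had 17 of 20 genes measured, none called, with a median of −0.134. At an unadjusted p under 0.05 there were 1 higher and 4 lower genes, where 5.76% of all genes lay higher and 6.90% lower. Pdcd4, an inhibitor of the initiation helicase, differed by −0.49 (adjusted p = 0.24), Tbc1d7, a subunit of the TSC complex, by −0.33 (adjusted p = 0.31), and Deptor, an inhibitor of mTOR, by −0.48 (adjusted p = 0.36). These 3, named for the smallest p of the list, lay lower in every knockout than in every WT animal, as did 6.37% of all genes. The gene higher at that threshold was Eif4ebp1, a repressor of initiation (0.52, adjusted p = 0.38). Of the subunits of mTORC1 itself, Mlst8 differed by −0.55, Mtor by −0.29 and Rptor by −0.21.

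Translation initiation factors (23 of 29 measured) and elongation factors with other TOP messages (20 of 23 measured) had none called and none at an unadjusted p under 0.05, with medians of −0.063 and 0.012. MCT4KO 3 had the highest average of the 7 arrays in both lists, 11.44 and 14.81. The other arrays averaged 11.25 to 11.39 and 14.6 to 14.77. The genes with the smallest p in these lists were Eif5a (0.21), Eif2b4 (−0.24), Eif4e (−0.18), Eif3e (0.27, adjusted p = 0.43), Pabpc4 (−0.29) and Eif3m (0.25). Ribosome quality control had 17 of 19 genes measured, none called, with a median of −0.060, and Ascc3, a helicase that splits collided ribosomes, differed by −0.63 (adjusted p = 0.14). That list also holds Lig4 (0.66, adjusted p = 0.30), a DNA ligase with no known part in this process. The list of the 5S particle and the p53 response had 13 of 15 genes measured, none called, with a median of −0.0058. Its lowest p was that of Grwd1, an assembly chaperone (−0.60, adjusted p = 0.28), followed by the p53 targets Sesn1 (−0.44) and Phlda3 (0.18). Other p53 targets lay on both sides of 0. Sesn2 (−0.21), Eda2r (−0.08) and Mdm2 (−0.07) lay below it. Cdkn1a (0.32), Ccng1 (0.20), Zmat3 (0.19) and Bbc3 (0.076) lay above it. Of the 13 genes of this list, 3 were at background in both groups.

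**Figure D5:**
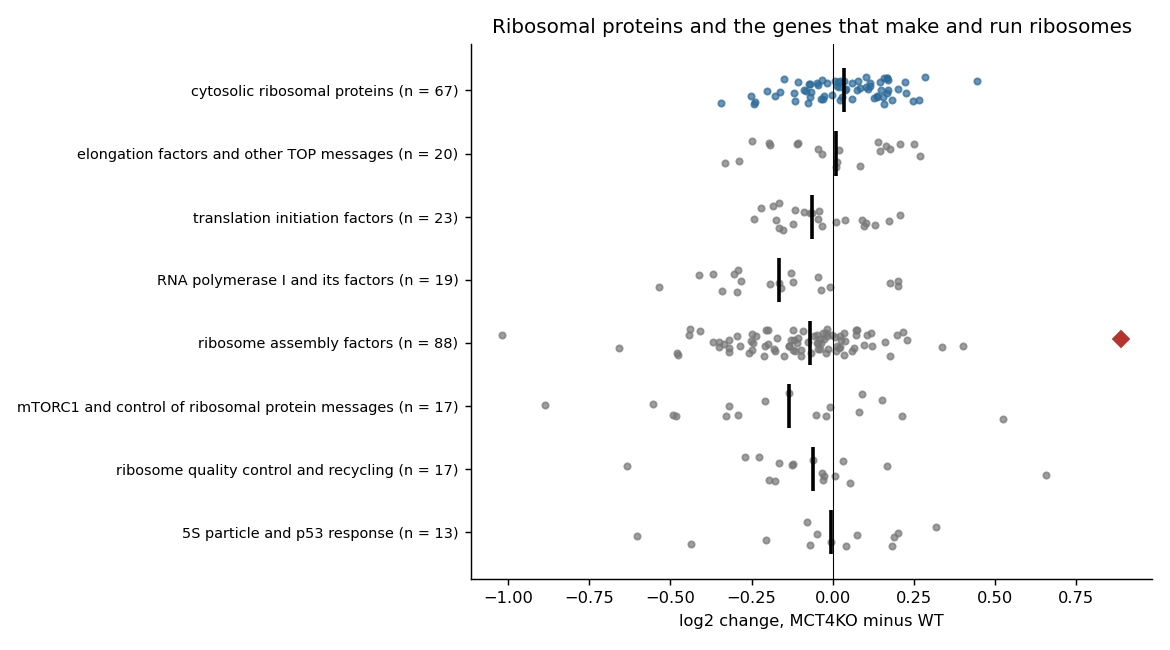
Log2 difference of every measured gene, MCT4KO minus WT, in the ribosomal protein genes and the lists around them, with the list median as a bar. The cytosolic ribosomal proteins are gathered near 0, with a median of 0.035, and Riok3 among the assembly factors is the gene past the adjusted threshold in these lists.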

How the data were processed

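The authors deposited 1 log2 value per feature and array for 7 arrays, for which the submitters' processing notes name Affymetrix Expression Console 1.4.1. Background correction and normalization: not given in the sources used here. Log2 was read as the scale from the range of values (2.44 to 19.41), and the highest exceed the log2 of a 16-bit scanner reading, so differences are on the deposited scale. Values were used as deposited. Of 28846 features, 22206 were transcript clusters: 19572 had 1 gene symbol, 0 had several and 2634 had none in the platform table. All 19572 matched RefSeq (GRCm38.p6) by gene identifier. For 55 genes with several features, that with the highest mean was used, which left 19505 genes. A group was at background where each array read at or below its median of 5222 negative controls (5.91 to 6.08).

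MCT4KO was tested against WT with limma 3.58.1 (R 4.3.3; lmFit, eBayes, no covariate, two-sided, Benjamini-Hochberg over all genes), with 5 residual and 4.66 prior degrees of freedom, checked on simulated data. Single genes also had an exact permutation test over 35 splits. Lists were described without a test. The number of arrays limits the precision: the median standard error was 0.139 over members and 0.167 over all genes. Members and lists were chosen with earlier results of these data known. Genes were named by a rule on the smallest p, values without overlap, high and low signal, listed paralogues and set key genes, and for other lists called genes and up to 3 with the smallest p. Members named for MCT4KO 3, Rps9, Rps26, Rps19 and Rpl32l, and the mTORC1 and p53 genes beyond the first 3 of their lists, were chosen after their values were seen. Alternatives were quantile normalization, centring, a filter on low values, the mean of a gene's features, trended robust moderation, the animal number as a block, leaving out animals, raising values to background and leaving out paralogues.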

Additional observations from a re-analysis of the deposited data

Results flagged for a closer look

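In Rpl14, WT 1 read 16.25 where the other WT animals read 16.52, 16.52 and 16.56, a gap of 0.855 of the group's range. In Rps10, WT 2 read 15.01 where the others read 14.94, 14.93 and 14.93, a gap of 0.889 of the range. Both gaps exceed Dixon's 95% critical value for 4 samples. Chance passes about 1 group in 20, or 3.35 of the 67 members, and 2 did.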

How the results depend on the processing

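No member was called under any of the 14 alternatives with a test, and the smallest adjusted p among members ran from 0.20 to 0.56. Slc16a3 stayed called in all 14. The number of genes called was 115, and it was 79 to 156 under other normalization, centring, filters, features and moderation, 6 with the animal number as a replicate block, 16 without WT 1 and WT 2, and 15 to 64 with 1 animal left out. No litter, batch or day is stated that same-numbered animals share, so the block has no stated basis. Deviations of same-numbered animals had correlations of −0.127, 0.0157 and 0.0499, and those of other pairs ran from −0.117 to 0.12. These values cannot show whether animals shared a batch. The block also takes WT 4, which has no partner, out of the comparison, so its differences equal those without WT 4, among them the median over members of 0.017. Under the alternatives that kept every animal that median was 0.024 to 0.065. With 1 animal left out it ran from −0.065 (without MCT4KO 3) to 0.091, that of the large subunit from −0.030 to 0.088 and that of the small subunit from −0.070 to 0.099. The sign of Rplp1 turned with the block and equally without WT 4 (−0.0043), and with 1 animal left out it ran from −0.067 to 0.064, that of Rpl5 from −0.010 to 0.21, that of Rpl11 from −0.091 to 0.11 and that of Rpsa from −0.081 to 0.34. Rps27l (0.33 to 0.53) and Rplp0 (−0.46 to −0.21) kept their direction throughout. Riok3 lost its call with the block (0.85, adjusted p = 0.14). The cause of the other shifts was not tested. The number of animals limits what could be called: the 95% intervals of Rps27l and Rplp0, which are not adjusted for the number of genes, excluded 0, and neither gene was called.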

Other observations

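The genes outside the members whose values followed the per-array median of the ribosomal proteins most closely over the 7 arrays were Zcchc12 (r = 0.997), Lyzl6 (0.983), 4930571K23Rik (0.982), Itga7 (0.975) and Rps6kl1 (0.972). All but Itga7 were at background in both groups, and Itga7 read 8.06, 8.11, 8.30 and 7.92 in WT and 8.16, 8.0 and 9.14 in MCT4KO. The genes with the highest values were picked from all 19505, so these are descriptions.

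Of the other cell types, macrophage markers averaged 5.91 to 6.60 in WT and 5.85 to 5.99 in MCT4KO arrays, erythroid markers 6.10 to 7.47 and 6.13 to 6.17, B and T cell markers 4.43 to 4.61 and 4.48 to 4.8, and endothelial markers 5.49 to 5.76 and 5.68 to 5.94. At background in both groups were 4 of 11, 1 of 3, 7 of 8 and 6 of 8 of their genes.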
